A study of Mus musculus with 16 samples.

Results

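The comparison described here set mouse embryonic stem (ES) cells at passages 23 and 24 against the same line at passages 20 and 21, over 8 arrays of each out of 16 in all, and over all 24606 probes. The cells were E14TG2a, an HPRT- ES line, and they were profiled on Illumina MouseRef-8 BeadChips at 4 passages, with 4 treatments at each passage. All cells were first held for 6 h in medium with KSR (knockout serum replacement) and SB-431542 (SB) at 10 µM, which blocks the receptors for Activin and Nodal. They then had 18 h in KSR medium with 25 ng/ml Activin (ACT), with 10 µM SB, with the carrier DMSO at 1 in 5000, or with nothing added (KSR). The later group therefore held ACT, SB, DMSO and KSR cells of passages 23 and 24, and the earlier group ACT, SB, DMSO and KSR cells of passages 20 and 21. Arrays were assigned by the passage in their labels, with no use of measured values. The study used passages as its replicates, in order to find and remove effects of culture variation. Culture drift itself was not its question, and the 8 arrays of a group came from 2 passages of 1 line. Passage number and anything else that differed between those passages, such as handling or array processing, cannot be told apart.

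ES cells of the mouse keep the identity of the early epiblast through Oct4 (Pou5f1), Nanog and Sox2. In the blastocyst their sister lineage is the primitive endoderm, a sheet of cells that covers the epiblast and is set up by the transcription factors Gata6, Sox17, Sox7 and Gata4 together with the receptor Pdgfra. Primitive endoderm and the visceral and parietal endoderm that come from it take up nutrients through Dab2 and Amn and lay down a basement membrane of type IV collagen and laminin, and ES cultures are known to hold a small, variable fraction of such cells.

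Among probes that passed the test, the largest differences were rises in genes of this endoderm lineage, and they stepped up between passage 21 and passage 23 in all 4 treatments. Dab2 was 4.84-fold higher at passages 23 and 24, Srgn 3.54-fold, Amn 2.49-fold, Gata6 2.32-fold and Col4a2 2.20-fold. Foxq1 was 3.67-fold higher, but only 1 of its 8 earlier arrays was above background, and the fold was 3.05 with earlier values below background raised to the lowest above-background signal of their array. The falls that passed were smaller, with Acta2, S100a6 and the germ line and pluripotency gene Dppa3 1.69-fold, 1.65-fold and 1.57-fold lower. Genes of the amino acid stress response (Nupr1, Chac1, Vldlr) were about as much higher as Col4a2, but they differed about as much between passages 20 and 21, and between 23 and 24, as between the later and earlier groups.

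Of the 24606 probes, 187 passed an adjusted p of 0.05 (0.76%) in limma with treatment as a term and passage as a random block. At passages 23 and 24, 110 of them were higher (0.447% of probes) and 77 lower (0.313%). Counted as genes, with the brightest probe of each, 87 of 15967 were higher (0.545%) and 62 lower (0.388%). Counts of list members below are to be set beside these shares over all genes. Beyond 1.5-fold there were 28 probes higher and 4 lower among those that passed. The median difference over all genes was -0.0012 on the log2 scale under quantile normalization. With arrays scaled by their medians instead, the median over probes was -0.12 and 2476 probes passed, 8.36% of them higher, against 58.8% higher in the quantile-normalized values, so the balance of rises and falls depends on the scaling and changes below are relative to the typical probe. Mean raw intensity ran from 667 to 760 on the later arrays and from 486 to 669 on the earlier ones, and 9903 to 10366 probes were above background on the later arrays, against 9816 to 10482 on the earlier ones. Brightness thus moved with passage, and its part in the results was not tested. In bulk RNA, fewer cells of a type and less RNA per cell cannot be told apart.

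**Figure D1:**
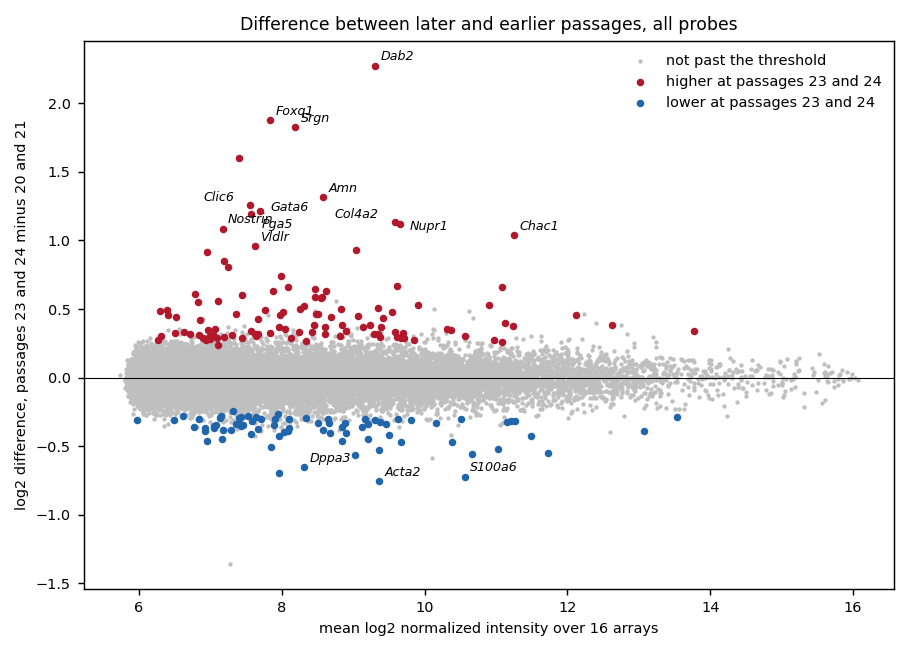
Each point is 1 probe, with its mean log2 normalized intensity over 16 arrays on the horizontal axis and the log2 difference (passages 23 and 24 minus 20 and 21) on the vertical axis; red and blue points are the 110 probes higher and 77 lower past the threshold. The rises reach 2.27 (Dab2), while the falls past the threshold reach -0.76 (Acta2).

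Pou5f1 had a median of 13.01 on the later arrays (12.80 to 13.17) and 13.00 on the earlier ones (12.76 to 13.16), in log2 normalized intensity. Nanog had 12.91 (12.44 to 13.18) at passages 23 and 24 and 12.80 (12.50 to 13.18) at passages 20 and 21. Sox2 and Zfp42 (Rex1, a marker of undifferentiated ES cells) were likewise above background on every array. All 12 measured genes of a core pluripotency list were above background on at least 4 arrays, and 0 of them passed in either direction, with or without the passage block. The arrays of both groups therefore carried the markers of their labelled cell type.

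Dab2, the endocytic adaptor, had values of 10.25 to 10.82 on the 8 later arrays (median 10.40), against 8.03 to 8.43 on the 8 earlier arrays (median 8.16). Every later array was above every earlier one by at least the whole spread within either group. The log2 difference was 2.27 ± 0.08 (SE; adjusted p = 2.26e-15). By passage the means were 8.20, 8.14, 10.30 and 10.59 at passages 20, 21, 23 and 24, so almost all of the change lay between passages 21 and 23, with a further 0.29 between 23 and 24 (adjusted p = 0.0387 among arrays of those passages).

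Gata6, the transcription factor that directs cells to primitive endoderm, ran from 8.06 to 8.63 at passages 23 and 24 (median 8.28) and from 6.61 to 7.40 at passages 20 and 21 (median 7.14). It was above background on 8 of 8 later arrays and 4 of 8 earlier ones, and the 2 ranges did not overlap. The log2 difference was 1.21 ± 0.08 (SE; adjusted p = 9.18e-10), with passage means of 7.16, 7.02, 8.29 and 8.31. Foxq1, a forkhead transcription factor, was above background on 8 of 8 later arrays and 1 of 8 earlier ones. Its values were 7.99 to 9.25 (median 8.88) on the later arrays and 6.54 to 7.18 (median 6.95) on the earlier ones, again without overlap (log2 difference 1.87 ± 0.09, adjusted p = 3.48e-12). Within each passage the lowest Foxq1 value was that of the SB cells, 7.99 at passage 23.

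Amn (amnionless, the membrane partner of the cubilin uptake receptor) had 9.06 to 9.37 on the later arrays and 7.69 to 8.07 on the earlier ones, a log2 difference of 1.31 ± 0.07 (adjusted p = 8.66e-11). Srgn, the core protein of the proteoglycan serglycin, had 8.43 to 9.53 at passages 23 and 24 and 7.13 to 7.47 at passages 20 and 21 (log2 difference 1.82 ± 0.11, adjusted p = 1.40e-10), and its other probe had the same sign. Clic6, of the chloride intracellular channel family, and Nostrin, an adaptor in nitric oxide synthase trafficking, were above background on every later array and on no earlier one. Measured against the lowest above-background signal of the earlier arrays, Clic6 was at least 2.05-fold higher and Nostrin at least 1.47-fold higher (adjusted p = 7.90e-08 and 3.44e-08). For all 4 of these genes the 8 later arrays lay above the 8 earlier ones.

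**Figure D2:**
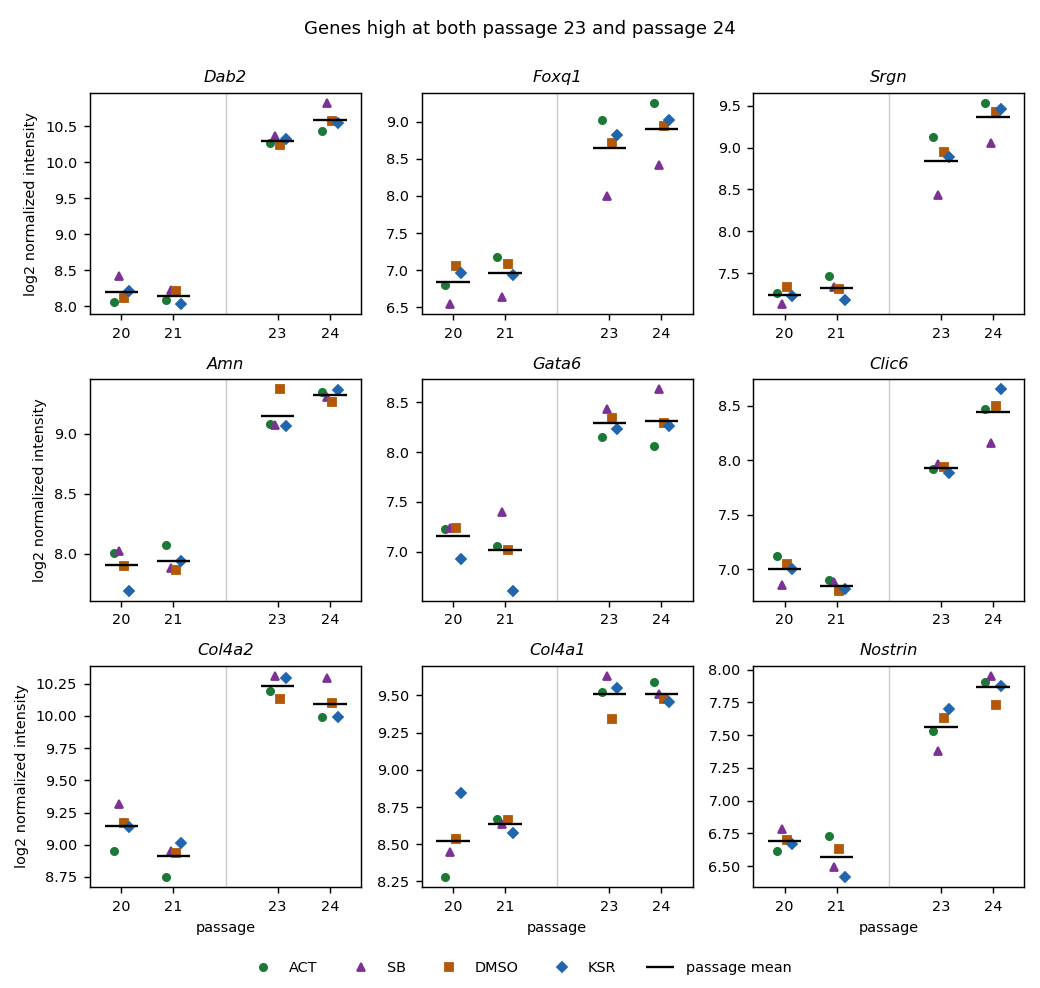
Log2 normalized intensity (vertical axis) of 9 genes on each array by passage (horizontal axis), with a symbol for each treatment and a black bar for the mean of a passage. For every gene the 8 arrays of passages 23 and 24 lie above the 8 of passages 20 and 21.

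Genes of the basement membrane showed the same step in part. Col4a2 and Col4a1 encode the chains of the main type IV collagen trimer, and Serpinh1 encodes the collagen chaperone Hsp47. Col4a2 had 9.99 to 10.31 on the later arrays and 8.75 to 9.32 on the earlier ones (log2 difference 1.14 ± 0.07, adjusted p = 6.24e-10). Col4a1 had 9.34 to 9.63 against 8.28 to 8.84 (0.93 ± 0.08, adjusted p = 7.58e-08), and Serpinh1 11.24 to 11.58 against 10.50 to 11.02 (0.66 ± 0.08, adjusted p = 8.37e-05), later arrays first. These 3 were the only ones to pass of 19 measured members of the basement membrane list, all higher, and the list's median difference was 0.07 against -0.0012 over all genes. The share higher over all genes was 0.545%. The other 16 members, laminin genes among them, did not pass.

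Col4a1 and Col4a2 lie head to head on chromosome 8 and are shown here because both rose by similar amounts. In the RefSeq annotation of GRCm38.p6 their start sites are 21 bases apart, on opposite strands, so the windows from 250 bases before to 50 after each start share 78 bases, which are in capitals. The Col4a2 window is chr8:11312555-11312854 on the plus strand and the Col4a1 window chr8:11312777-11313076 on the minus strand.
Col4a2: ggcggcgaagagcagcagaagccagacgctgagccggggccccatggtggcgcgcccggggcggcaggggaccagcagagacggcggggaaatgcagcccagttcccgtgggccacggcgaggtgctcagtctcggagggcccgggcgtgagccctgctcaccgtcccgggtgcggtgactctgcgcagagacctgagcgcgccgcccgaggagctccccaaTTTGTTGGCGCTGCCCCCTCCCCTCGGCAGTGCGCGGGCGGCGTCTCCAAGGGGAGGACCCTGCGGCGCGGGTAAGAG
Col4a1: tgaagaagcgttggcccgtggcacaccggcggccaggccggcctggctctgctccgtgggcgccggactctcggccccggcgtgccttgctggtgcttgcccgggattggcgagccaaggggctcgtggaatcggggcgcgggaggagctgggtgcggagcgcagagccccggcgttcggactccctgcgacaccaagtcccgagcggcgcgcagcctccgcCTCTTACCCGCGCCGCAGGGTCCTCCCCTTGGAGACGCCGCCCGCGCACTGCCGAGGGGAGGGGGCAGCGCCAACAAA

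Among the regulators of primitive endoderm, 9 of 10 listed genes were measured and 6 passed, all higher, against 0.545% higher over all genes. Besides Dab2, Foxq1 and Gata6 these were Pdgfra, Sox7 and Sox17. Pdgfra, the receptor that marks the lineage, was above background on 8 of 8 later arrays and 0 of 8 earlier ones and was at least 1.17-fold higher (adjusted p = 3.80e-05). Sox7 and Sox17 passed (adjusted p = 7.05e-04 and 0.00212), but neither was above background on any array, so no size is given for them. The list's median difference of 0.50 is the value of Sox7 and so rests on a probe not above background. The list's summed linear intensity ran from 2840 to 3435 on the later arrays and from 1279 to 1445 on the earlier ones. The list was chosen with earlier results of these data known. It holds Dab2, an adaptor rather than a regulator, Foxq1 and Gata6, so its count and sum restate the rises of those genes. Gata4, which acts beside Gata6 in this lineage, went the other way without passing in the main fit. Its median was 7.98 on the later arrays and 8.25 on the earlier ones (log2 difference -0.30 ± 0.08, adjusted p = 0.0821). It passed as lower in 3 of 20 alternative settings, among them limma without the passage block (adjusted p = 0.0279). The other Gata4 probe had the opposite sign.

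Of 17 measured markers of differentiated primitive endoderm 4 passed, all higher: Srgn, Amn, Serpinh1 and Ttr (transthyretin, a carrier protein made by visceral endoderm). Ttr was above background on no array. The share higher over all genes was 0.545%. The list's median was 0.07, with 10 of the 17 differences above 0, and 7 of the 17, Afp among them, were above background on no array. The definitive endoderm list shares Gata6 and Sox17 with the lists above and had no other member that passed out of 12 measured.

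Few markers of other cell types that such a culture could hold passed. In the trophectoderm list 1 of 18 passed, Krt7, a keratin, which was lower at passages 23 and 24 (log2 difference -0.34 ± 0.08, adjusted p = 0.0423). The share lower over all genes was 0.388%. Krt7 was uneven among treatments, with differences of -0.02 in ACT, -0.65 in SB, -0.31 in DMSO and -0.36 in KSR cells (interaction adjusted p = 0.9998 over all probes). It was above background on 5 of 8 later and 7 of 8 earlier arrays and did not pass in 13 of the 20 alternative settings. Of the trophoblast homeobox gene Rhox6 and of placental cadherin Cdh3, the differences were -0.32 and -0.20 (adjusted p = 0.0806 and 0.249). The summed intensity of the trophectoderm list overlapped between the groups, at 3731 to 5746 on the later and 3629 to 6224 on the earlier arrays. Of 14 fibroblast and feeder cell genes 10 were above background on no array, Col1a1, Col1a2, Col3a1, Postn and Dcn among them, and only Acta2 passed, lower. Of 11 neuroectoderm genes and 13 primitive streak genes 0 passed, and 9 and 10 of them were above background on no array.

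Among the probes that passed, the falls were led by Acta2 and S100a6. Acta2, the actin of smooth muscle and contractile cells, had 8.43 to 9.48 (median 8.99) on the later arrays and 9.35 to 10.18 (median 9.69) on the earlier ones. S100a6, a calcium-binding protein, had 9.58 to 10.89 (median 10.18) at passages 23 and 24 and 10.41 to 11.20 (median 11.01) at passages 20 and 21. Both ranges overlapped between the groups. Their log2 differences were -0.76 ± 0.17 and -0.72 ± 0.16 (adjusted p = 0.0342 and 0.0363). By passage Acta2 had means of 10.07, 9.41, 9.38 and 8.58 at passages 20, 21, 23 and 24, so passages 21 and 23 were alike and the fall came between 20 and 21 and between 23 and 24 (adjusted p = 6.09e-04 and 2.67e-05). S100a6 followed the same course, with 11.16, 10.70, 10.64 and 9.77. Without passage 20, and likewise without passage 24, neither gene passed, and without passage 24 the differences were -0.35 and -0.29. Of the 2 other Acta2 probes 1 had the opposite sign.

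Of 21 measured genes of the actin cytoskeleton and CCN list 5 passed, all lower: Acta2, S100a6, Lgals3 (galectin 3), Cnn2 (calponin 2) and Tpm1 (tropomyosin 1). The share lower over all genes was 0.388%. Lgals3 differed by -0.42 ± 0.09, Cnn2 by -0.31 ± 0.07 and Tpm1 by -0.30 ± 0.07 in log2. None of these 5 calls held when only probes above background on 4 or more arrays were fitted, with an estimated correlation of 0.233 (adjusted p = 0.0655 to 0.104), or with passage means (adjusted p = 0.428 to 0.615). Of 20 alternative settings, Cnn2 did not pass in 15, Tpm1 in 14, Acta2 and S100a6 in 12 each and Lgals3 in 11. The list's median was -0.16, with 3 of the 21 differences above 0, against -0.0012 over all genes. Its median was -0.11 at passage 23 and -0.31 at passage 24, each relative to passages 20 and 21. Csrp1, another actin-binding protein that passed outside the list, was named after its values were seen and had 8.97 to 9.27 on the later and 9.28 to 9.64 on the earlier arrays. It did not pass in 11 of the 20 settings.

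Dppa3 (Stella), a gene of germ cells and of ES cells close to the inner cell mass, fell at both later passages. It had 7.80 to 8.13 (median 8.02) at passages 23 and 24 and 8.30 to 9.00 (median 8.61) at passages 20 and 21, without overlap, and a log2 difference of -0.65 ± 0.08 (adjusted p = 9.77e-05). It was the only member to pass of 14 measured naive pluripotency genes and of 12 germ cell genes. Of the 20 alternative settings Dppa3 did not pass in 2, passage means (adjusted p = 0.14) and only DMSO and KSR arrays. Klf4 and Gbx2, both naive factors, differed by 0.33 ± 0.09 and 0.25 ± 0.08 (adjusted p = 0.0857 and 0.135), and Gdf3 and Lin28a of the core list by -0.22 ± 0.07 and -0.13 ± 0.07 (adjusted p = 0.159 and 0.515).

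Tcstv3 and AF067061, both on chromosome 13, are counted with the genes of the 2-cell embryo that rare ES cells express. Tcstv3 had 10.38 to 11.09 on the later and 11.05 to 11.61 on the earlier arrays (log2 difference -0.52 ± 0.07, adjusted p = 2.96e-04), and its other probe had the same sign. AF067061 had 11.09 to 11.75 on the later and 11.77 to 12.25 on the earlier arrays (-0.55 ± 0.07, adjusted p = 1.30e-04). Such genes have near-identical copies, so the probe cannot be tied to 1 locus. Of 4 measured genes in the 2-cell list Tcstv3 alone passed. Tcstv3 and AF067061 each did not pass in 2 of the 20 alternative settings. Those were passage means (adjusted p = 0.293 and 0.114) and only DMSO and KSR arrays.

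The remaining large falls belonged to no list. Rhox9, a homeobox gene of the X chromosome, had 8.53 to 8.90 at passages 23 and 24 and 9.11 to 9.38 at passages 20 and 21 (log2 difference -0.56 ± 0.07, adjusted p = 2.52e-05). Usp28, a deubiquitinase, had 7.36 to 7.81 and 7.84 to 8.30, and Klhl13, a substrate adaptor of the Cul3 ubiquitin ligase, 8.94 to 9.34 and 9.43 to 10.29, with the later arrays given first in each. These 3 genes did not overlap between groups. Grn (progranulin), Ccno (cyclin O), Dhx16 (an RNA helicase of the spliceosome) and Gbp2b (a GTPase induced by interferon) differed by -0.47 ± 0.11, -0.47 ± 0.10, -0.46 ± 0.09 and -0.46 ± 0.09 with overlapping ranges. Their adjusted p in limma was 0.0494, 0.018, 0.0146 and 0.00767. Grn also differed by 0.48 between passages 20 and 21 (adjusted p = 0.013). Of the 20 alternative settings, Grn did not pass in 15, Ccno in 11, Dhx16 in 10, Klhl13 in 8, Gbp2b in 7, Usp28 in 5 and Rhox9 in 1. Gbp2b was above background on only 1 of 8 later and 5 of 8 earlier arrays.

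Genes of the integrated stress response, which cells switch on when amino acids run short or proteins misfold, were the other group of rises. The pathway acts through the transcription factor Atf4. Of 17 measured members 4 passed, all higher: Chac1, an enzyme that breaks down glutathione, Vldlr, a lipoprotein receptor, Asns, asparagine synthetase, and Shmt2, the mitochondrial serine hydroxymethyltransferase. The share higher over all genes was 0.545%. The list's median difference was 0.26, and 13 of the 17 differences were above 0. Of the 20 alternative settings, Vldlr did not pass in 15, Shmt2 in 14, Asns in 11 and Chac1 in 10. With only probes above background on 4 or more arrays, Chac1 and Asns passed (adjusted p = 0.0397 and 0.0496) and Vldlr and Shmt2 did not (0.0991 and 0.137). Outside the list Nupr1, a stress-induced regulator of transcription, rose with them. Trib3, an Atf4 target, differed by 0.50 ± 0.15 without passing at its brightest probe (adjusted p = 0.162). Of its 2 other probes 1 passed, and 0 had the opposite sign.

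Unlike the endoderm genes, which were nearly level between passages 20 and 21, Chac1, Nupr1 and Vldlr fell between those passages. Chac1 had 11.26 to 12.39 on the later arrays (median 11.76) and 10.09 to 11.42 on the earlier ones (median 10.76), so the groups overlapped. Its passage means were 11.26, 10.21, 11.35 and 12.20 at passages 20, 21, 23 and 24, with passage 21 lowest, passage 24 highest and passages 20 and 23 nearly equal. Nupr1 ran 9.58, 8.63, 9.67 and 10.77 and Vldlr 7.55, 6.73, 7.51 and 8.69 over the same passages. Vldlr was above background on 8 of 8 later and 3 of 8 earlier arrays. Its 3 other probes had the same sign, but 0 of them passed. Passage 24 exceeded passage 23 by 0.85 for Chac1, 1.10 for Nupr1 and 1.18 for Vldlr (adjusted p = 2.67e-05, 6.01e-05 and 2.96e-06), and passage 21 was below passage 20 by about as much (log2 differences -1.06, -0.95 and -0.83). Against the earlier group their log2 differences were 1.04 ± 0.21, 1.12 ± 0.24 and 0.96 ± 0.23 (adjusted p = 0.0177, 0.0223 and 0.0494). When each passage was averaged to 1 value, so that 2 passages were set against 2, the adjusted p was 0.607, 0.607 and 0.636, and it was 0.578 for Asns and 0.532 for Shmt2.

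**Figure D3:**
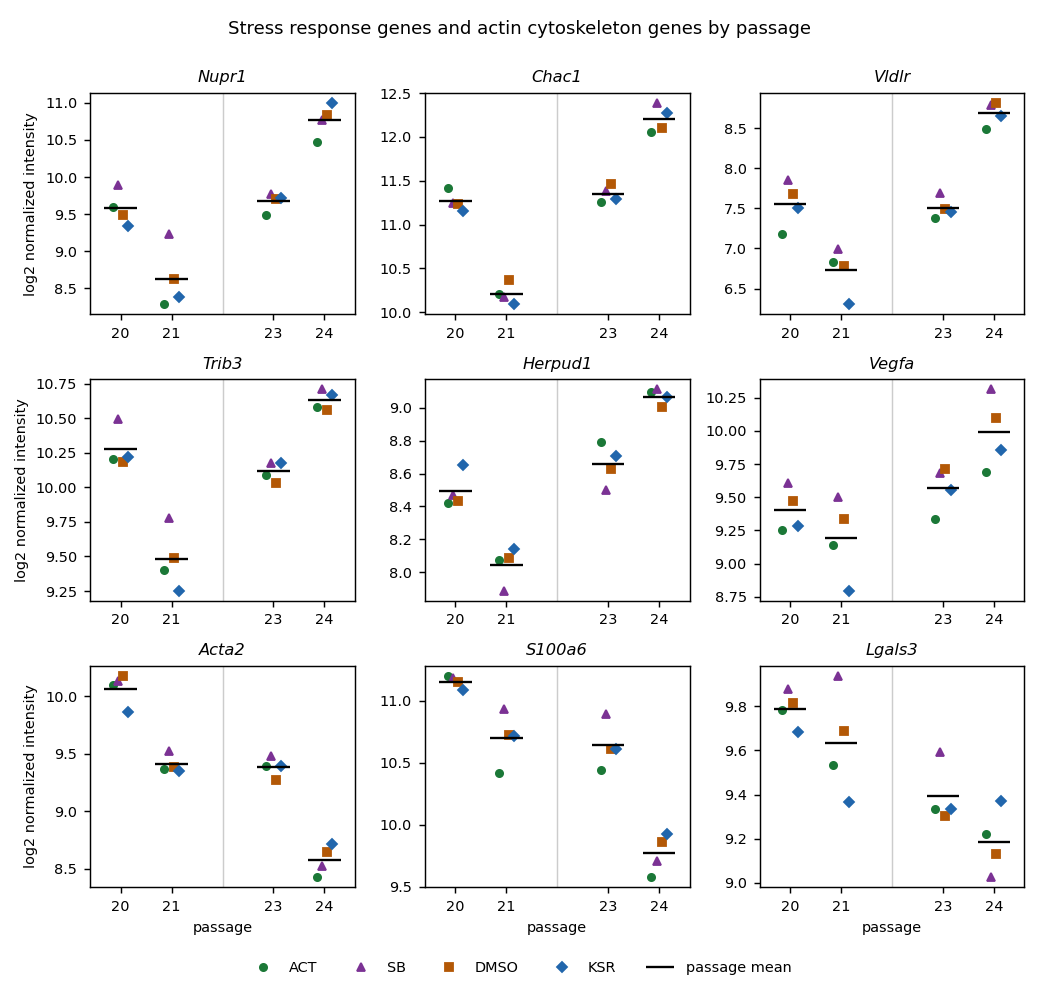
Log2 normalized intensity (vertical axis) by passage (horizontal axis) for 6 stress response genes and 3 genes of the actin cytoskeleton list, with a symbol for each treatment and a black bar for the mean of a passage. Chac1 has means of 11.26, 10.21, 11.35 and 12.20 and Acta2 of 10.07, 9.41, 9.38 and 8.58, with no single step between passages 21 and 23.

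The promoters of Chac1, Nupr1 and Vldlr are shown because each holds TGATGCAA, the letters of the response element that C/EBP and Atf4 bind as a pair. The letters were searched on both strands in RefSeq windows of 300 bases (GRCm38.p6, 250 before to 50 after each start), with the genes that passed already known. They occur in 0.895% of 32851 windows and in 0.825% of the 12848 measured genes that have a window. Of 69 genes that rose and have a window 5 hold them (Chac1, Herpud1, Nupr1, Serpinf1 and Vldlr), and of 50 that fell 1 does (Sfn). In the stress response list 5 of 16 genes hold them, and 3 of those (Atf3, Fgf21 and Slc7a11) were above background on no array. A second set of letters, the GATA motif AGATAA, was searched in the same way. It was found in 11.6% of the genes that rose, 8% of those that fell and 10.8% of all measured genes with a window. In each window below the TGATGCAA match is on the opposite strand, reads TTGCATCA as printed, and is in capitals. It starts 193 bases before the start in Chac1 (chr2:119350992-119351291, plus strand), 110 before in Nupr1 (chr7:126625421-126625720, minus strand) and 200 before in the downstream of the 2 Vldlr windows (chr19:27216770-27217069, plus strand).
Chac1: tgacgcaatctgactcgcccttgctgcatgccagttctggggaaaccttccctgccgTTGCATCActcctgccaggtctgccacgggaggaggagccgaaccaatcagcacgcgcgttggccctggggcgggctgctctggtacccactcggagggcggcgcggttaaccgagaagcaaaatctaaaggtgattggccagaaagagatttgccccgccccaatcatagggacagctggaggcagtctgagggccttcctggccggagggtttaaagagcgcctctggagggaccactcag
Nupr1: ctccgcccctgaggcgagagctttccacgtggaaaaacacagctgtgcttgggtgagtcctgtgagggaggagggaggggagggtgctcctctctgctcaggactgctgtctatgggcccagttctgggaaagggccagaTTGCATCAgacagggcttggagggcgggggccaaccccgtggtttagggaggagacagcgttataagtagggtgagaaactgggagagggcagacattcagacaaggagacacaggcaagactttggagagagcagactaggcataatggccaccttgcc
Vldlr: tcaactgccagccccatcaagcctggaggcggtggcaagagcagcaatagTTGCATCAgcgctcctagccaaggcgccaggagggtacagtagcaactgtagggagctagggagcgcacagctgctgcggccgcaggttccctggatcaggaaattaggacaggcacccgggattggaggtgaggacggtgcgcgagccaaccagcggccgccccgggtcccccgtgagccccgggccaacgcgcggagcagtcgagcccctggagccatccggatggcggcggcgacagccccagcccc

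Lists next to this pathway moved less. Of 14 measured genes of the unfolded protein response 1 passed, Herpud1, a protein of endoplasmic reticulum quality control, with 8.50 to 9.11 at passages 23 and 24 and 7.89 to 8.65 at passages 20 and 21 (log2 difference 0.59 ± 0.11, adjusted p = 0.00765). Its passage means of 8.49, 8.05, 8.66 and 9.07 at passages 20, 21, 23 and 24 followed the course of Chac1. Of the 20 alternative settings Herpud1 did not pass in 8, passage means among them (adjusted p = 0.549). The list's median was 0.01, and Xbp1, its central transcription factor, differed by 0.19 ± 0.06 (adjusted p = 0.179). In the glycolysis and hypoxia list 1 of 18 passed, the growth factor Vegfa (9.33 to 10.31 on the later and 8.80 to 9.61 on the earlier arrays, adjusted p = 0.0176), which did not pass in 11 of the 20 settings. That list's median was -0.0049 at passage 23 and 0.23 at passage 24 relative to passages 20 and 21. Ldha, lactate dehydrogenase A, differed by 0.26 ± 0.08 (adjusted p = 0.159).

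Pga5 (pepsinogen 5) was the least even of the 12 largest rises, and it was above background on 7 of 8 later and 2 of 8 earlier arrays. It had 7.13 to 9.06 on the later arrays and 6.61 to 7.56 on the earlier ones (log2 difference 1.20 ± 0.22, adjusted p = 0.00765). Its difference was 1.44 in ACT, 1.63 in DMSO and 1.65 in KSR cells but 0.06 in SB cells (interaction adjusted p = 0.9998 over all probes). Pga5 did not pass in 9 of the 20 alternative settings, passage means among them (adjusted p = 0.293).

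In the other lists, among them Nodal, BMP, Wnt and FGF targets, cell cycle, p53, ribosomal, mitochondrial, cholesterol, imprinted, interferon and reference genes, 0 members passed. Lefty1, a Nodal target that SB turns down strongly, differed by -0.35 ± 0.11 (adjusted p = 0.166), Id2, a BMP target, by -0.28 ± 0.11 (adjusted p = 0.261), and Dusp6, an ERK phosphatase, by 0.22 ± 0.09 (adjusted p = 0.32). Igf2, an imprinted growth factor, differed by -0.42 ± 0.11 (adjusted p = 0.0859), Aurkb, a mitotic kinase, by 0.22 ± 0.07 (adjusted p = 0.194), Rpl32, a ribosomal protein, by -0.18 ± 0.06 and Ifitm1 by -0.23 ± 0.08 (adjusted p = 0.206 for both). Esrp1, a splicing factor of epithelial cells, and Cdh1 (E-cadherin) differed by -0.38 ± 0.10 and -0.29 ± 0.08 (adjusted p = 0.0703 and 0.1).

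**Figure D4:**
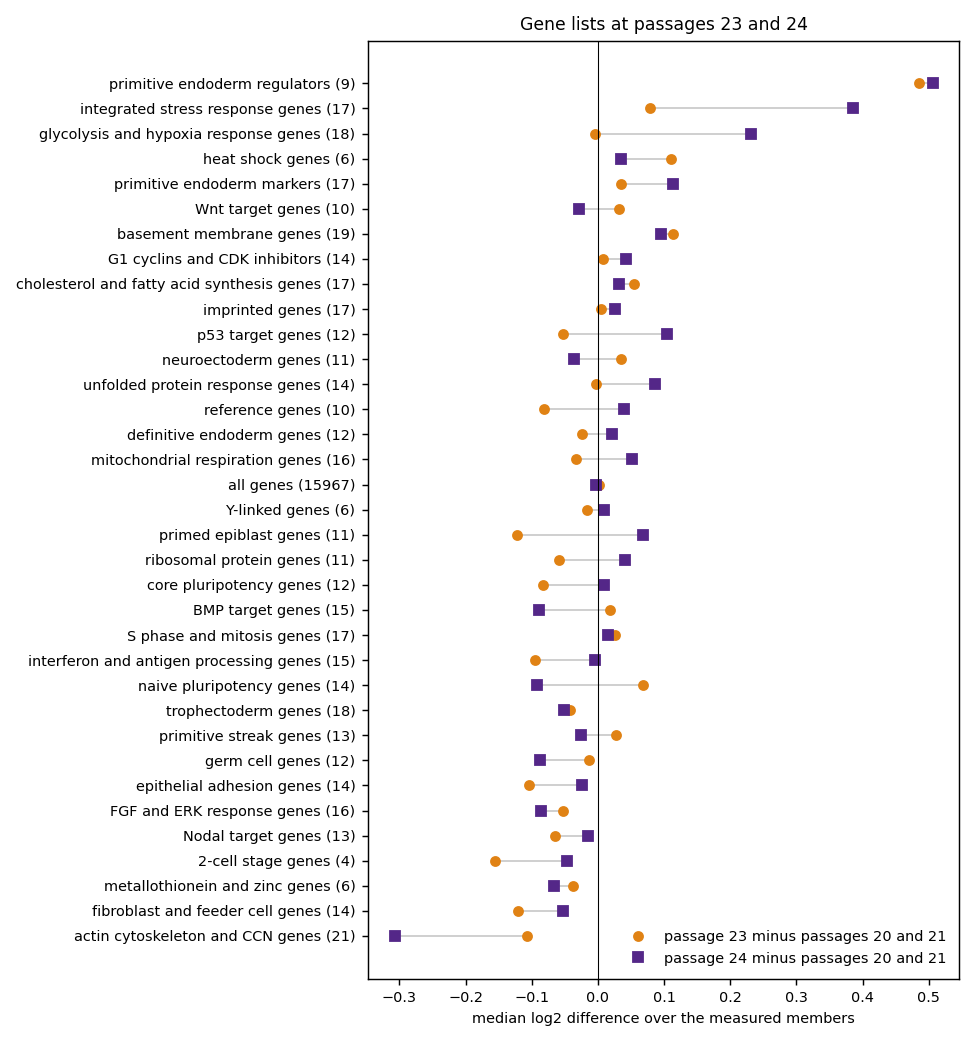
Median log2 difference over the measured members of each gene list (number in brackets) at passage 23 (orange circles) and passage 24 (purple squares), each minus the mean of passages 20 and 21. Primitive endoderm regulators have 0.49 and 0.51 (the values of Sox7, above background on no array), integrated stress response genes 0.08 and 0.38, and actin cytoskeleton genes -0.11 and -0.31.

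Of 7773 genes above background on at least 4 arrays, 132 passed (1.7%). Chromosome 6 had the highest share, with 7 higher and 7 lower of 370 genes (3.78%), and among the other chromosomes from 1 to 19 and X the share ran from 0.719% (chromosome 14) to 2.43% (chromosome 12). The medians of chromosomes 1 to 19 and X lay between -0.02 (chromosome 7, 640 genes) and 0.02 (chromosome 1, 366 genes) in log2. Chromosomes 8 and 11, whose extra copies are known in mouse ES cultures, had medians of -0.0054 (459 genes) and -0.0012 (685 genes).

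The differences were then compared between the 4 treatments. In the test of the interaction between treatment and passage group 0 of 24606 probes passed (0%), with a smallest adjusted p of 0.363, and 964 (3.92%) had an unadjusted p under 0.05. The interaction count was 20 without normexp and 11 in the authors' normalized values. Fitted within a single treatment, from 2 arrays against 2 with the spread pooled over all treatments, 15 probes passed in each of ACT, SB, DMSO and KSR cells, and 10 passed in all 4. Those 10 were Dab2, Foxq1, Srgn, Amn, Clic6, Gata6, Col4a2, Col4a1, Nostrin and a probe without a gene symbol. Dab2 differed by 2.27 in ACT, 2.27 in SB, 2.24 in DMSO and 2.31 in KSR cells. Gata6 differed by 0.97, 1.21, 1.19 and 1.48, and Foxq1 by 2.15, 1.61, 1.76 and 1.97, in the same order. Chac1 differed by 0.84, 1.17, 0.98 and 1.16, and Dppa3 by -0.64, -0.68, -0.59 and -0.70.

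**Figure D5:**
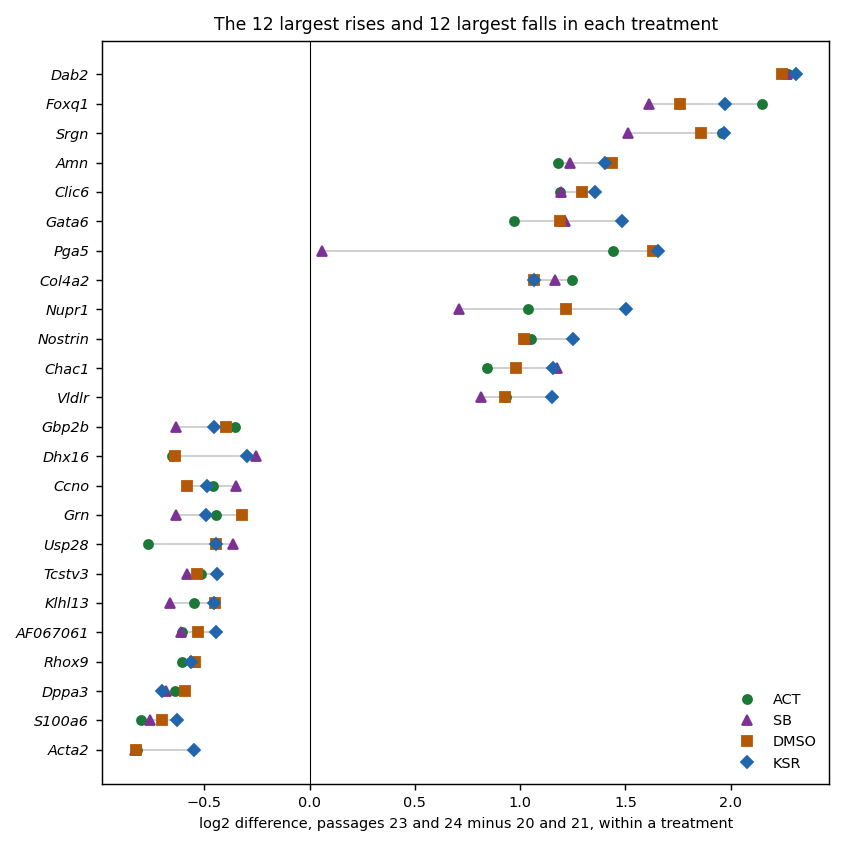
Log2 difference (passages 23 and 24 minus 20 and 21) within each treatment for the 12 genes with the largest rises and the 12 with the largest falls; a symbol stands for a treatment and a grey line spans the 4. All 4 symbols lie on 1 side of 0 for each gene, which the choice of genes required, and Pga5 in SB cells (0.06) lies nearest to 0.

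To read agreement without choosing probes on the treatment examined, probes were picked on 3 treatments and their sign read in the fourth. Of 61 probes picked without the ACT arrays, 61 had the same sign in ACT cells. The same held for 83 of 88 in SB, 75 of 75 in DMSO and 82 of 84 in KSR cells. Over all probes the share with the same sign was 60.4% to 61.5%. Probes picked as higher had median differences of 0.54 in ACT, 0.50 in SB, 0.55 in DMSO and 0.58 in KSR cells, and those picked as lower -0.45, -0.36, -0.37 and -0.33. Across all probes the differences of 2 treatments correlated with r of 0.28 to 0.32, and across the 10741 probes above background on at least 4 arrays with r of 0.42 to 0.51. These are descriptions over probes, and the cells of all treatments shared their passages.

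The count depended on the unit of replication. Taking the 16 arrays as independent, 439 probes passed (1.78%). With each passage averaged, 15 passed (0.061%), all higher, and 1836 had an unadjusted p under 0.05. They covered 12 named genes: Dab2, Foxq1, Amn, Gata6, Col4a1, Srgn, Col4a2, Nostrin, Dram1, Kdelr3, Clic6 and Pdgfra. Dram1 (a lysosomal regulator of autophagy) and Kdelr3 (a receptor that returns proteins to the endoplasmic reticulum) were named after their values were seen. Dram1 was above background on 7 of 8 later arrays and 0 of 8 earlier ones and was at least 1.19-fold higher, and Kdelr3 was 0.66 ± 0.07 higher in log2. For any single value, 2 passages against 2 allow an exact permutation p of no less than 0.333. The estimated correlation between arrays of a passage was 0.0769 over all probes, of which 12828 were above background on no array, and 0.233 over the 10741 probes above background on at least 4 arrays, where 69 passed. For the 187 calls limma applied the value of 0.0769 to each probe, also to genes such as Chac1 whose passages differed strongly.

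Across all probes the 8 later arrays lay wholly above the 8 earlier ones for 89 (0.362%) and wholly below for 52 (0.211%). Of the 110 probes that passed as higher 58 were in the first group, and of the 77 that passed as lower 28 were in the second. Both later passage means lay beyond both earlier ones, on 1 side, for 38.1% of all probes and for 186 of the 187.

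Neighboring passages differed too. Passage 24 differed from passage 23 at 702 probes (2.85%) and passage 21 from passage 20 at 217 (0.882%), with treatment and passage as fixed terms. Passage 23 differed from the mean of passages 20 and 21 at 421 probes (1.71%), and passage 24 at 1373 (5.58%). Of the 187 probes, 128 passed at both passage 23 and passage 24 in the direction of the main difference, and 55 passed at passage 24 but not at passage 23. In 143 of the 187 the passage 24 difference was the larger. The step of the endoderm genes was present at both later passages. Gata6 was 1.20 and 1.22 higher at passages 23 and 24 than at passages 20 and 21, and Col4a1 0.93 and 0.93. Srgn was 1.56 and 2.08 higher and Clic6 1.00 and 1.52. Both of these rose again from passage 23 to passage 24 (adjusted p = 0.00445 and 0.00274).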

How the data were processed

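RNA was hybridised to 16 BeadChip arrays. Per the labels and the study's methods, the authors subtracted background in BeadStudio and deposited 1 table of intensity values before normalization, which was used, and 1 of intensity values after cross-correlation normalization with a floor of 40, used as an alternative. Intensities were corrected with normexp (offset 50), quantile-normalized and taken as log2, then fitted in limma 3.58.1 (R 4.3.3) with treatment as a term and passage as a random block, with Benjamini-Hochberg adjustment over 24606 probes. Background was the 95th percentile of 1191 probes of olfactory, taste and vomeronasal receptors on each array, and such a threshold is approximate. Of the probes, 20980 had 1 symbol, and the brightest stood for its gene. The array count limits the precision. Genes were named by rule: the 12 largest rises and falls that passed, above background on at least 4 arrays and with 1 sign in 4 treatments, 4 endoderm markers, and up to 3 members of each of 34 lists. Members and lists were chosen with earlier results of these data known. Arrays of a group may share more than a passage, so p-values measure the spread between these samples. With an estimated correlation of 0.0769 within a passage, those of the main fit rest mostly on the spread of arrays, not of passages. The fits were tested on simulated data.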

Additional observations from a re-analysis of the deposited data

Results flagged for a closer look

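A far value was looked for among the 8 later and the 8 earlier arrays of the 24 genes with the largest rises and falls (48 groups), by setting the gap of the highest or lowest array to its neighbour against the range of the group. Chance alone marks about 1 in 20 such groups, and 2 were marked here. Klhl13 on the SB array of passage 21 had a log2 intensity of 10.29, against 9.72 on the next highest earlier array. Rhox9 on the ACT array of passage 21 had 9.11, against 9.27 on the next lowest earlier array.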

How the results depend on the processing

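The main count was 187 probes. It was 439 with no replicate block, 15 with passage means, 81 with a normexp offset of 16, 78 without normexp (floor of 16), 2476 with array median scaling, 51 in the authors' normalized values and 69 when only probes above background on 4 or more arrays were tested. It was 61 without ACT, 88 without SB, 75 without DMSO and 84 without KSR arrays, and 36 with only DMSO and KSR arrays, where fewer arrays were fitted. Leaving out 1 passage at a time gave 107 (without passage 21) to 762 (without passage 23), and the lone passage of a group was then assumed to vary like the others. It was 220 with a linear trend, 181 with cyclic loess, 178 with array weights and, chosen after seeing the data, 134 without the dimmest array (KSR, passage 21). The share higher among calls ranged from 8.36% with array median scaling to 100% with passage means. The interaction count of 0 became 20 without normexp and 11 in the authors' values, and 0 to 1 without a passage (Fbxw5 without passage 20 or 21, Psmc1 without passage 23), and the cause was not tested. Of 49 named genes that passed, 0 changed sign in 977 values under these alternatives and 317 values no longer passed. Dab2, Foxq1, Srgn, Amn, Clic6, Gata6, Col4a2, Col4a1 and Nostrin passed under all 20. Chac1 and Nupr1 did not pass without passage 21 or without passage 24 (log2 differences down to 0.51 and 0.57), nor Acta2 and S100a6 without passage 20 or 24 (-0.35 and -0.29). No paired analysis was possible because the later and earlier groups share no replicate numbers.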

Other observations

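Several further genes that passed were chosen here after their values were seen. Lgmn, a lysosomal protease, had 9.66 to 10.22 in log2 intensity on the later arrays and 9.10 to 9.42 on the earlier ones (log2 difference 0.67 ± 0.08, limma adjusted p = 3.80e-05). Slc40a1, the iron exporter ferroportin, was 0.63 ± 0.10 higher, the chemokine Cxcl12 0.58 ± 0.11, Serpinf1, a secreted protein of the serpin family, 0.59 ± 0.13, and Podxl, a sialomucin of apical membranes, 0.45 ± 0.07. Gas6, a ligand of Axl-type receptors, was 0.46 ± 0.09 higher. Klb, a co-receptor for FGF hormones, passed with the later arrays brighter (adjusted p = 8.37e-05), but it was above background on 4 of 8 later arrays and 0 of 8 earlier ones, so no fold is given. Smarca4, the ATPase of the BAF chromatin remodeling complex, was lower, with 8.85 to 9.35 at passages 23 and 24 and 9.19 to 9.44 at passages 20 and 21. Of the 20 alternative settings, Serpinf1 and Smarca4 did not pass in 14 each, Cxcl12 in 11, Gas6 in 10, Podxl in 4, Slc40a1 in 3, Klb in 2 and Lgmn in 1. Serpinf1 had passage means of 8.39, 7.96, 8.43 and 9.09 at passages 20, 21, 23 and 24, a course like that of Chac1.

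The largest fall among all probes did not pass. Fbxw5, an F-box protein, had a log2 difference of -1.36 ± 0.33 (adjusted p = 0.0571). It was above background on 0 later and 4 earlier arrays.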
